A study of Mus musculus with 8 samples.

Results

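The genes described here are 37 markers and regulators of astrocytes, read in neural stem cell (NSC) cultures that were exposed to a chitinase-like protein. A gene was represented by the Affymetrix probe set that is annotated with its symbol alone and has the highest mean signal over the 8 arrays. All 37 genes had such a probe set, out of 18194 genes on the array with one. Signals reached 50 on at least 2 of 8 arrays for 35 of the 37, among 8964 such genes in all, and the tests below cover these 35. *Gjb6* and *Dio2* stayed under this filter.

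The cells were labelled as NSCs from adult mouse brain and were grown as neurospheres for 3 or 7 days. In the rcCHIL3 group they received recombinant CHIL3, a secreted chitinase-like protein that the sample labels call ECF-L, supplied as medium conditioned by HEK293T cells (a human embryonic kidney line) carrying the gene. The MHM + GF group was grown in the serum-free medium MHM with the growth factors EGF and FGF-2. There were 2 arrays for each of the 4 groups. The study's methods describe these as independent experiments and list rcCHIL3 with growth factors as a separate medium, so CHIL3, the conditioning by HEK293T cells and the absence of added growth factors, which are not stated for the rcCHIL3 arrays, cannot be told apart in these 8 arrays. Wild-type C57BL/6J adults, wild-type ICR embryos and transgenic mice are listed among the animals of the study, and which of these the arrays came from is not stated beyond the label's adult brain.

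Astrocytes are the glial cells that clear glutamate and potassium from around synapses, take part in water and lipid transport, and deposit part of the brain's extracellular matrix. In development they arise from the same progenitors that first give rise to neurons. The switch is known to depend on SOX9 and the nuclear factor I (NFI) proteins, and on cytokine signals that pass through the gp130 receptor to STAT3 and on BMP signals that act with them. NSCs themselves share many genes with astrocytes, among them the glutamate transporter *Slc1a3*, so a level of such a gene does not name a cell type. In RNA from whole cultures, more cells of a type and more RNA per cell cannot be told apart.

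The deposited average signal differed from array to array, between 267 and 317, and all arrays were brought to 100 on average. On this scale, called signal below, 30.1 to 31.5% of probe sets reached 50 on each array, and the 2 arrays of a group correlated at r = 0.992 to 0.994. Differences are given as log2 changes of signal + 20 with the standard error (SE) of the model, and a gene is called where its two-sided p, adjusted over all 15679 probe sets over the filter, is under 0.05. Of 13 NSC and progenitor genes with a probe set, 12 were over the filter and *Fut4* was not. *Sox2*, a transcription factor of NSCs chosen after its values were seen, was high in all groups. Its mean signal was 1728 ± 60.0 in rcCHIL3 against 1946 ± 14.04 in MHM + GF at 3 days (SD, n = 2), and 1883 ± 92.9 against 2055 ± 58.1 in MHM + GF at 7 days. *Nes* reached 50 only in MHM + GF at 3 days. Of the 12 genes, 3 were higher and 7 lower in rcCHIL3 at 3 days, against 30.3% and 22.1% of all genes. At 7 days none was higher and 8 were lower, against 21.8% and 22.6%. None of the 12 microglia and macrophage genes and none of the 10 endothelial genes passed the filter. The summed signal of the microglia and macrophage genes was 42.1 to 114 on an array, and that of the endothelial genes 33.0 to 67.2.

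At 3 days, 19 of the 35 tested genes (54.3%) were higher in rcCHIL3 than in MHM + GF, and 8 (22.9%) were lower. Over all 8964 tested genes 30.3% were higher and 22.1% lower. Of the 19, 10 genes were at least 2-fold higher on the log2 scale of the test, led by *Gfap*, *Clu* and *Agt*, and 1, *Aldh1l1*, was at least 2-fold lower. At 7 days the split was nearly even, with 12 genes (34.3%) higher and 11 (31.4%) lower, against 21.8% and 22.6% of all genes, and only 2 genes were 2-fold higher and 2 were 2-fold lower. With the test of the study's methods, run on linear signals of 1 pair of groups at a time, 13 higher and 1 lower gene passed after the same adjustment at 3 days, and 0 higher and 1 lower at 7 days (20 and 5, and 10 and 9, unadjusted). The median log2 change was 0.27 for the 35 genes against 0.045 for all genes at 3 days, and -0.022 against -0.0055 at 7 days. For the 2-fold counts no share of all genes is given. The quartiles at 3 days were -0.17 and 1.35 for the 35 genes, against -0.19 and 0.29 for all genes. At 7 days they were -0.28 and 0.49, against -0.22 and 0.21.

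Both cultures changed with time, the MHM + GF cultures more widely. At 7 days 26 of the 35 genes (74.3%) were higher than at 3 days in MHM + GF, where 34% of all genes rose, and 4 (11.4%) were lower, where 24.2% of all genes fell. In rcCHIL3 14 genes (40%) were higher at 7 days, against 20.3% of all genes, and 4 (11.4%) were lower, against 18%. The comparisons share arrays: the MHM + GF arrays at 3 days enter both the first medium comparison and the MHM + GF time course. The lowest of the 4 group means lay in MHM + GF at 3 days for 21 of the 35 genes and for 37.7% of all genes.

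**Figure D1:**
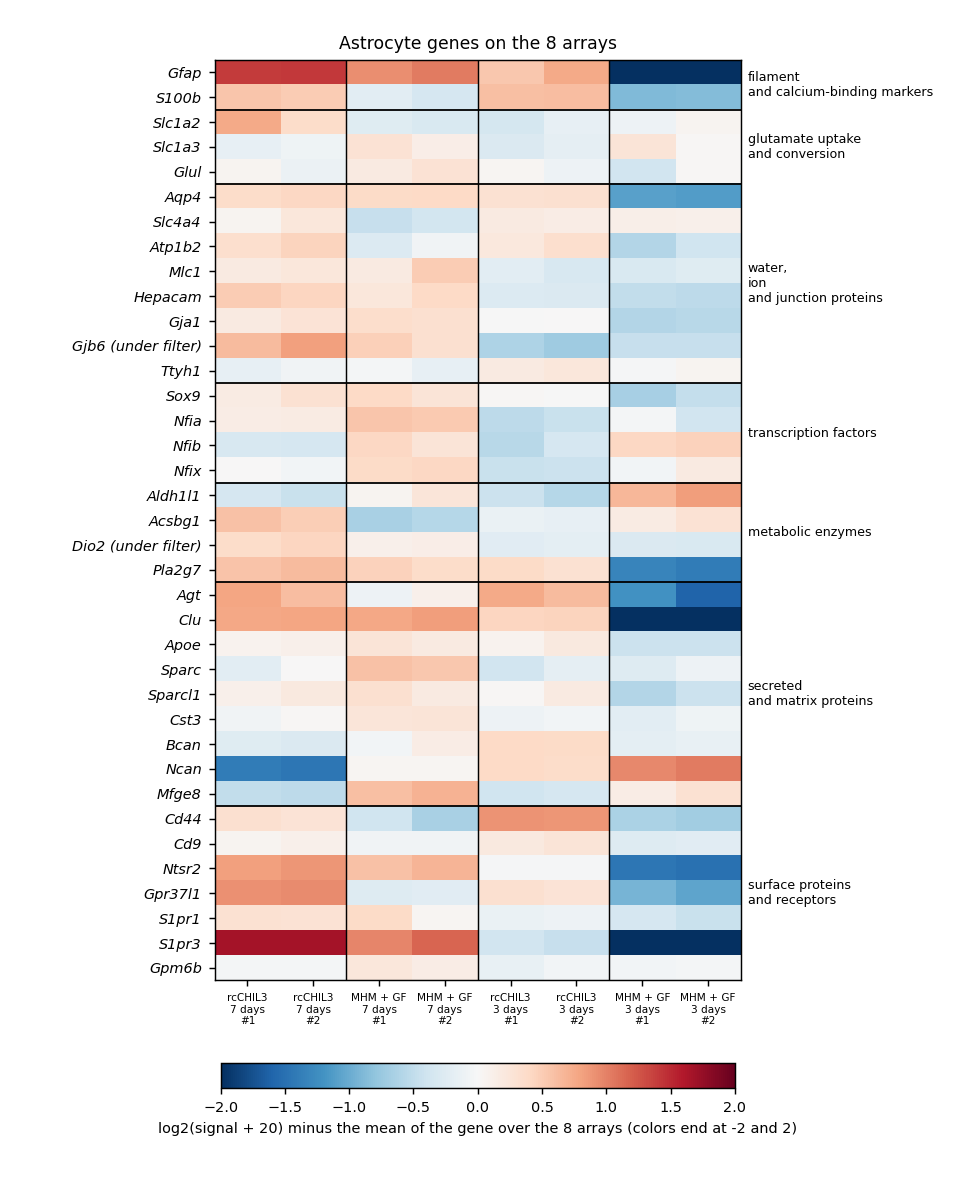
Heat map of the 37 astrocyte genes (rows, grouped by role) on the 8 arrays (columns, # is the array number in its group), showing log2(signal + 20) minus the mean of each gene over the arrays, with colors ending at -2 and 2. The 2 MHM + GF arrays at 3 days are the bluest columns for *Gfap*, *Clu*, *S1pr3*, *Agt*, *Ntsr2*, *Pla2g7* and *Aqp4*, while *Nfib*, *Aldh1l1* and *Ncan* are lower in rcCHIL3 than in MHM + GF at the same day.

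The intermediate filament gene *Gfap*, the textbook marker of differentiated and reactive astrocytes, had the largest change of the list at 3 days. Its signal was 842 and 978 in rcCHIL3, against 57.6 and 46.3 in MHM + GF, a 17.5-fold ratio of mean signals (log2 change 3.69 ± 0.090, adjusted p = 4.0e-10). At 7 days the signal was 1538 and 1555 in rcCHIL3, against 1101 and 1189 in MHM + GF (0.43 ± 0.090, adjusted p = 0.0029). The groups did not overlap at either day, and the MHM + GF arrays of day 7 lay above the rcCHIL3 arrays of day 3. *S100b*, which encodes a calcium-binding protein of astrocytes, behaved otherwise in time. It had signals of 389 and 393 in rcCHIL3 against 126 and 128 in MHM + GF at 3 days (1.49 ± 0.072, adjusted p = 2.1e-08). At 7 days it had 375 and 364 in rcCHIL3 and 213 and 194 in MHM + GF (0.80 ± 0.072, adjusted p = 7.2e-06). Both MHM + GF arrays at 7 days stayed below every rcCHIL3 array.

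None of the 3 genes of glutamate uptake and conversion was higher in rcCHIL3 at 3 days, where 30.3% of all genes were. *Slc1a3*, the glutamate transporter that NSCs and astrocytes share, had signals of 989 and 1068 in rcCHIL3 against 1463 and 1239.6 in MHM + GF at 3 days (-0.38 ± 0.085, adjusted p = 0.0029). The 7-day signals were 1083 and 1141 in rcCHIL3 and 1494 and 1340.0 in MHM + GF (-0.34 ± 0.085, adjusted p = 0.0071). It was lower in rcCHIL3 at both days, although the call at 7 days was lost without the MHM + GF array 1 of that day (adjusted p = 0.0555) and on the deposited scale (0.0553). *Slc1a2*, the main glutamate transporter of mature astrocytes, had 262 and 302 in rcCHIL3 against 318 and 355 in MHM + GF at 3 days, a difference that did not pass the test (-0.24 ± 0.12, adjusted p = 0.108). At 7 days it was higher in rcCHIL3, with 591 and 444 against 285 and 274 in MHM + GF (0.83 ± 0.12, adjusted p = 2.0e-04). The 3-day difference was called when either rcCHIL3 array of day 7 was left out, through the shared spread (adjusted p = 0.0402 and 0.0396). *Glul*, which encodes glutamine synthetase, passed the test at neither day, with log2 changes of 0.15 ± 0.12, adjusted p = 0.319 at 3 days and -0.26 ± 0.12, adjusted p = 0.0863 at 7 days. When the groups of day 7 were fitted alone with the same model, *Glul* was called lower in rcCHIL3 (-0.26, adjusted p = 0.0303). Its MHM + GF arrays at 3 days lay apart, at 1011 and 1355, and without array 2 of the pair the 3-day change was called (0.35, adjusted p = 0.0147).

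Of the 8 genes for water, ion and junction proteins, 7 were tested. In rcCHIL3 at 3 days 5 of them were higher, where 30.3% of all genes were. The water channel gene *Aqp4* had signals of 1959 and 1973 in rcCHIL3, against 738 and 717 in MHM + GF (1.41 ± 0.054, adjusted p = 3.6e-09). At 7 days its 4 arrays lay together, at 2055 and 2124 in rcCHIL3 and 2069 and 2089 in MHM + GF (0.0070 ± 0.054, adjusted p = 0.928). *Atp1b2*, a subunit of the sodium and potassium pump, was higher in rcCHIL3 at both days. Its signals were 1392 and 1520.0 in rcCHIL3 against 791 and 897 in MHM + GF at 3 days (0.77 ± 0.086, adjusted p = 1.8e-05). On day 7 it had 1510.2 and 1626 in rcCHIL3 and 982 and 1137 in MHM + GF (0.56 ± 0.086, adjusted p = 3.6e-04). *Gja1*, the main connexin of astrocyte gap junctions, had 2285 and 2306 in rcCHIL3 against 1521 and 1549 in MHM + GF at 3 days (0.57 ± 0.056, adjusted p = 6.7e-06) and no called difference at 7 days (-0.11 ± 0.056, adjusted p = 0.149).

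At 3 days the other 4 tested ion and junction genes changed less at their brightest probe sets. *Slc4a4*, a sodium bicarbonate cotransporter gene, had 806 and 791 in rcCHIL3 against 778 and 762 in MHM + GF at 3 days (0.052 ± 0.070, adjusted p = 0.568), and was higher in rcCHIL3 at 7 days with 740.4 and 835 against 513 and 548 in MHM + GF (0.55 ± 0.070, adjusted p = 9.4e-05). *Mlc1* and *Hepacam* encode membrane proteins that form a complex at astrocyte junctions. *Mlc1* was called at neither day (0.0038 ± 0.094, adjusted p = 0.977 at 3 days and -0.14 ± 0.094, adjusted p = 0.254 at 7 days), although it was lower in rcCHIL3 at 7 days without MHM + GF array 1 of that day (-0.30, adjusted p = 0.0135). *Hepacam* passed the test narrowly at 3 days (0.22 ± 0.077, adjusted p = 0.0327) and not at 7 days (0.15 ± 0.077, adjusted p = 0.125). *Ttyh1*, a membrane protein gene of the tweety family, did the same (0.19 ± 0.068, adjusted p = 0.039 at 3 days and -0.013 ± 0.068, adjusted p = 0.895 at 7 days). The 3-day calls of *Hepacam* and *Ttyh1* were lost without any 1 of the 4 arrays compared, with adjusted p of 0.0741 to 0.133 and of 0.0581 to 0.182, and also on the deposited scale.

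The 2 genes under the filter were low on all arrays. *Gjb6*, a second astrocyte connexin, had signals of 5.65 and 4.003 in rcCHIL3 against 8.78 and 8.68 in MHM + GF at 3 days. Its signals at 7 days were 41.3 and 49.6 in rcCHIL3 and 34.9 and 29.4 in MHM + GF. *Dio2*, the deiodinase that activates thyroid hormone in astrocytes, had 24.6 and 25.6 in rcCHIL3 against 22.7 and 22.1 in MHM + GF at 3 days. Later, at 7 days, the arrays read 47.3 and 50.1 in rcCHIL3 and 36.1 and 36.9 in MHM + GF. Both were higher at 7 days than at 3 days on every array, without a test.

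The transcription factors went in opposite directions at 3 days. *Sox9* had 415 and 405 in rcCHIL3 against 249 and 286 in MHM + GF at 3 days (0.58 ± 0.084, adjusted p = 1.4e-04), and 458 and 509 against 541 and 492 in MHM + GF at 7 days, where it did not pass the test (-0.091 ± 0.084, adjusted p = 0.399). All 3 NFI genes were lower in rcCHIL3 at both days, where 22.1% of all genes were at 3 days and 22.6% at 7 days. For *Nfib* the signals were 441 and 515 in rcCHIL3 against 875 and 913 in MHM + GF at 3 days (-0.88 ± 0.080, adjusted p = 3.7e-06). By 7 days the values were 522 and 512 in rcCHIL3 and 877 and 787 in MHM + GF (-0.66 ± 0.080, adjusted p = 6.9e-05). *Nfix* had 494 and 500.3 in rcCHIL3 against 654 and 778 in MHM + GF at 3 days (-0.50 ± 0.078, adjusted p = 2.4e-04). At 7 days it had 690.2 and 659 in rcCHIL3 and 899.9 and 919 in MHM + GF (-0.42 ± 0.078, adjusted p = 0.0013). The groups of *Nfib* and *Nfix* did not overlap at either day.

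*Nfia* changed least of the NFI genes at 3 days, with 515 and 540.5 in rcCHIL3 and 724 and 567 in MHM + GF (-0.27 ± 0.093, adjusted p = 0.0294). This call rested on MHM + GF array 1, the higher of the pair: without it the log2 change was -0.10 (adjusted p = 0.301), and the call was also lost without either rcCHIL3 array (0.147 and 0.0696). At 7 days *Nfia* had 830.4 and 839 in rcCHIL3 and 1098 and 1075 in MHM + GF (-0.37 ± 0.093, adjusted p = 0.0072), again without overlap. The called differences of these 4 genes were called in the same direction on the deposited scale, after quantile normalization and after median centring.

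NFI proteins bind the motif TTGGC, one arm of their palindromic site, and STAT proteins bind sites with the core TTCNNNGAA, where N is any base. The 250 bases upstream of the transcription start were searched for both on either strand, in the RefSeq promoters of GRCm38.p6, which cover 30 of the 37 genes with 36 windows. The NFI motif was present in 17 of the 36 windows (47.2%), against 41.5% of 32851 windows of all genes, and the STAT core in 6 (16.7%), against 7.0%. The STAT core windows belong to *Slc1a3*, *Nfix* and *Acsbg1*, which were lower in rcCHIL3 at 3 days, and to *Pla2g7*, *Agt* and *Ntsr2*, which were higher. Of genes lower at 3 days, *Ncan* has 1 NFI motif and *Aldh1l1* has neither motif. Upstream windows of 4 genes that were higher in rcCHIL3 at 3 days are printed here, 5′ to 3′ on the strand of the gene, because they differ in these letters: *Gfap* (chr11:102897201-102897450, minus strand) has neither, *S100b* (chr10:76253586-76253835, plus strand) has 3 NFI motifs, and *Agt* (chr8:124569707-124569956, minus strand) and *Ntsr2* (chr12:16653220-16653469, plus strand) have 1 of each. Capitals mark the matches, which read GCCAA where the NFI motif is on the other strand. A match is a description of the letters and not of binding, and the array did not measure any factor at these windows.
Gfap: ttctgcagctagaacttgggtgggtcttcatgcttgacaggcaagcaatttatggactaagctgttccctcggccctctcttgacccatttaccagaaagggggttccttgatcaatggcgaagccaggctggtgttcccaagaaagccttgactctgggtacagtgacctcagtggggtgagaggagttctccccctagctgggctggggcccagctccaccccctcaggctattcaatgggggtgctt
S100b: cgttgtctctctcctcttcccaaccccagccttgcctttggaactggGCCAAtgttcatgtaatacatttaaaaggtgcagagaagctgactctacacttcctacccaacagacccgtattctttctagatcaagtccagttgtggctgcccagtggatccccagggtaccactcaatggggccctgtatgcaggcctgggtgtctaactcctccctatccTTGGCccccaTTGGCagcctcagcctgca
Agt: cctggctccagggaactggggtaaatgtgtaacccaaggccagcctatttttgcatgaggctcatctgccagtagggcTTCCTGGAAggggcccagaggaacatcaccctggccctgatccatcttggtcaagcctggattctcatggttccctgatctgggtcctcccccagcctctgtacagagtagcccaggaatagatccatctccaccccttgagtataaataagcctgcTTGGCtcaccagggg
Ntsr2: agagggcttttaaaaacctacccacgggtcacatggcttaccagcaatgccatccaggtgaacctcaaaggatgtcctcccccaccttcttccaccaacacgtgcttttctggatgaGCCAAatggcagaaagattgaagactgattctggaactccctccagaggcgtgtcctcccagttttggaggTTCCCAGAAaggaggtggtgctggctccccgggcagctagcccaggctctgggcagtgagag

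Among the metabolic enzymes, 2 of the 3 tested genes were lower in rcCHIL3 at 3 days and 1 was higher, against 22.1% and 30.3% of all genes. *Aldh1l1*, a folate enzyme widely used as a general astrocyte marker, was lower at both days. Its signals were 432 and 387 in rcCHIL3 against 934 and 1062 in MHM + GF at 3 days (-1.24 ± 0.089, adjusted p = 4.9e-07). The 7-day signals were 457 and 423 in rcCHIL3 and 608 and 695 in MHM + GF (-0.54 ± 0.089, adjusted p = 5.6e-04). *Acsbg1*, an acyl-CoA synthetase of the brain, was lower in rcCHIL3 at 3 days and higher at 7 days. It had 179 and 174 in rcCHIL3 against 223 and 245 in MHM + GF at 3 days (-0.37 ± 0.079, adjusted p = 0.0023), and 306 and 285 in rcCHIL3 against 118 and 127 in MHM + GF at 7 days (1.14 ± 0.079, adjusted p = 9.9e-07). *Pla2g7*, a secreted phospholipase that breaks down platelet-activating factor, had 1953 and 1843 in rcCHIL3 against 583 and 550.3 in MHM + GF at 3 days (1.71 ± 0.063, adjusted p = 2.7e-09). At 7 days 2212 and 2316 in rcCHIL3 stood against 2040.5 and 1919 in MHM + GF (0.19 ± 0.063, adjusted p = 0.0279), a call that was lost without rcCHIL3 array 2 or MHM + GF array 2 of that day (adjusted p = 0.136 and 0.161).

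Of the 9 genes for secreted and matrix proteins, 5 were higher and 2 lower in rcCHIL3 at 3 days, where 30.3% and 22.1% of all genes were. At 7 days 1 was higher and 5 were lower, against 21.8% and 22.6% of all genes, and 2 of the 5 lower calls (*Bcan* and *Cst3*) were lost on the deposited scale. *Clu*, which encodes the secreted chaperone and apolipoprotein clusterin, had 2209 and 2230.3 in rcCHIL3 against 382 and 390.5 in MHM + GF at 3 days, a 5.75-fold ratio of mean signals (2.46 ± 0.055, adjusted p = 3.0e-10). At 7 days its groups overlapped, at 2796 and 2837 in rcCHIL3 and 2789 and 2931 in MHM + GF (-0.022 ± 0.055, adjusted p = 0.777). *Agt*, the precursor of angiotensin and a product of astrocytes in the brain, had 311 and 281 in rcCHIL3 against 64.6 and 44.5 in MHM + GF at 3 days (2.09 ± 0.13, adjusted p = 1.2e-07). On day 7 it had 316 and 278 in rcCHIL3 and 163 and 190.1 in MHM + GF (0.69 ± 0.13, adjusted p = 0.0012).

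*Apoe*, the main lipid carrier of the brain, had 2479.5 and 2704 in rcCHIL3 against 1751 and 1754 in MHM + GF at 3 days (0.56 ± 0.060, adjusted p = 1.4e-05) and no called difference at 7 days (-0.14 ± 0.060, adjusted p = 0.0782). *Sparcl1*, a secreted protein that promotes synapse formation, was similar (0.61 ± 0.078, adjusted p = 5.6e-05 at 3 days and -0.10 ± 0.078, adjusted p = 0.305 at 7 days). Its relative *Sparc* did not pass the test at 3 days (-0.10 ± 0.091, adjusted p = 0.368) and was lower in rcCHIL3 at 7 days, with 735 and 857 against 1299 and 1245 in MHM + GF (-0.67 ± 0.091, adjusted p = 1.6e-04). *Cst3*, which encodes the protease inhibitor cystatin C, had 2657 and 2742 in rcCHIL3 against 2481 and 2698 in MHM + GF at 3 days (0.061 ± 0.061, adjusted p = 0.438). Its signals at 7 days were 2730.2 and 2919 in rcCHIL3 and 3379.8 and 3422 in MHM + GF (-0.27 ± 0.061, adjusted p = 0.0047). On the deposited scale the 7-day change of *Cst3* was -0.17 (adjusted p = 0.127).

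The lectican genes *Bcan* and *Ncan*, which encode proteoglycans of the brain's matrix, differed from each other. *Ncan* was lower in rcCHIL3 at both days, with 1059.7 and 1032 against 1572 and 1658 in MHM + GF at 3 days (-0.62 ± 0.059, adjusted p = 5.4e-06) and 289.7 and 281 against 824 and 818 in MHM + GF at 7 days (-1.46 ± 0.059, adjusted p = 1.8e-08). *Bcan* had 2513 and 2501 in rcCHIL3 against 1669 and 1729 in MHM + GF at 3 days (0.56 ± 0.069, adjusted p = 4.5e-05). Later, at 7 days, the arrays read 1617 and 1567 in rcCHIL3 and 1831 and 2112 in MHM + GF (-0.30 ± 0.069, adjusted p = 0.0046). On the deposited scale this change was -0.21 (adjusted p = 0.0853). *Mfge8*, which encodes a secreted protein that links dying cells to phagocytes, was lower at both days, with 863 and 900.0 in rcCHIL3 against 1272 and 1427 in MHM + GF at 3 days (-0.60 ± 0.068, adjusted p = 2.2e-05). By 7 days the values were 809 and 790.3 in rcCHIL3 and 1753 and 1873 in MHM + GF (-1.16 ± 0.068, adjusted p = 2.8e-07).

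**Figure D2:**
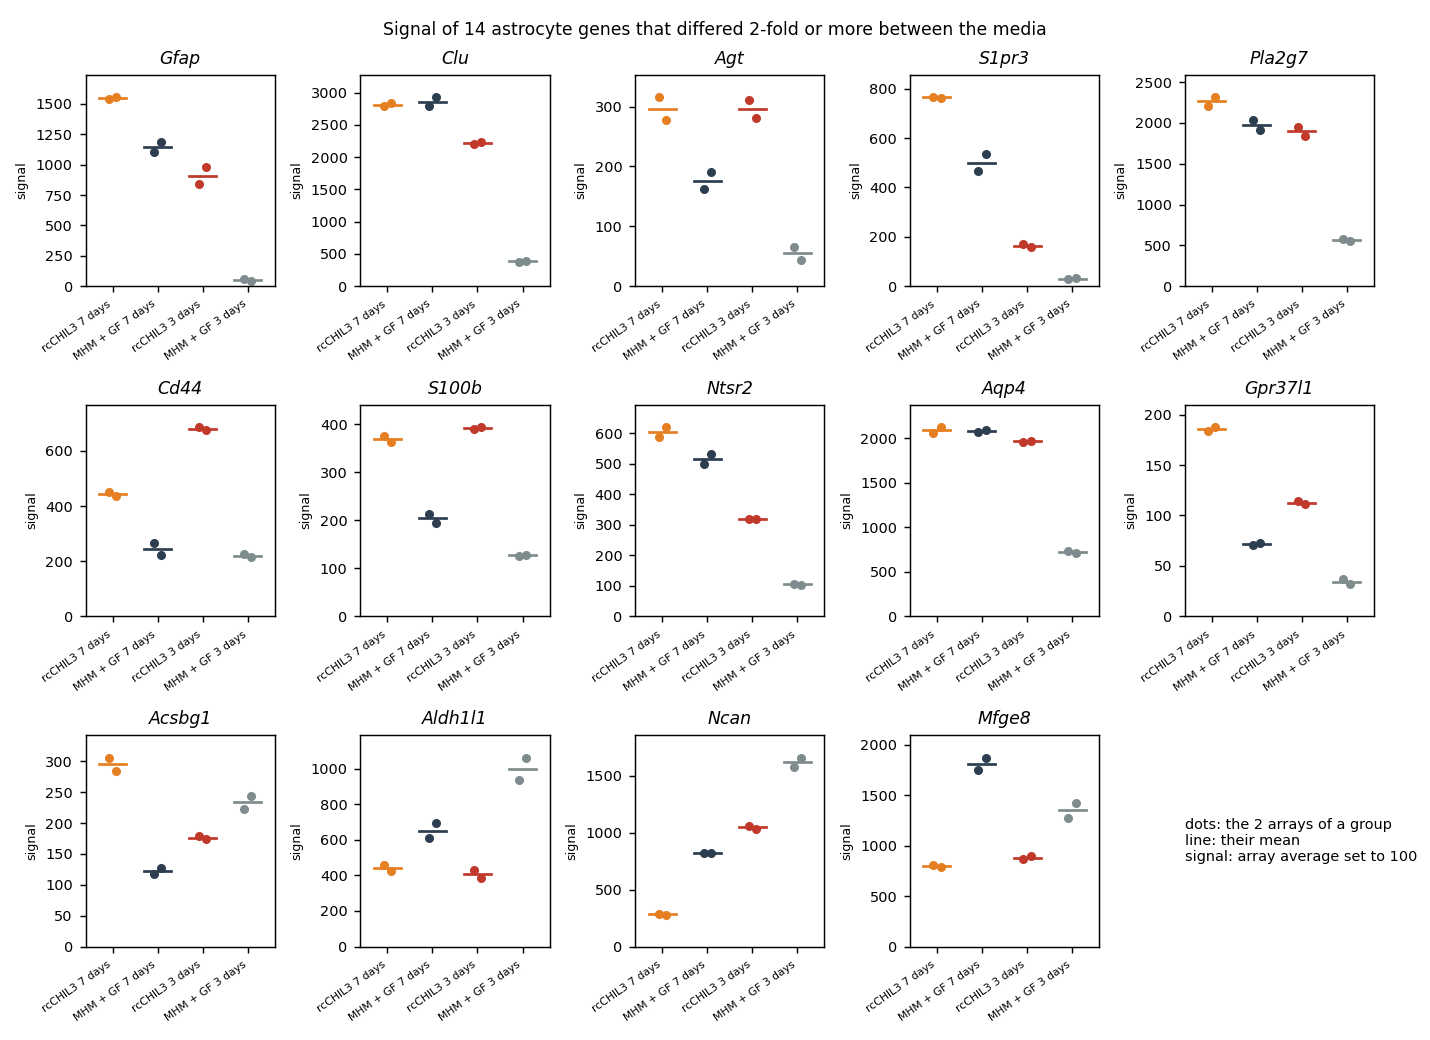
Signal (array average set to 100, linear axes starting at 0) of the 14 genes that differed at least 2-fold on the log2 scale between the media at 3 or 7 days, with a dot for each of the 2 arrays of a group and a line at their mean. For *Aqp4*, the 2 MHM + GF arrays at 3 days (738 and 717) lie below the other 6, whereas *Ncan* is lowest in rcCHIL3 at 7 days (289.7 and 281).

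Of the 7 genes for surface proteins and receptors, 5 were higher in rcCHIL3 at 3 days and none was lower, against 30.3% and 22.1% of all genes. *Cd44*, the receptor for the matrix sugar hyaluronan, had 685 and 677 in rcCHIL3 against 225 and 215 in MHM + GF at 3 days (1.55 ± 0.082, adjusted p = 4.0e-08). At 7 days it had 452 and 438 in rcCHIL3 and 267 and 223 in MHM + GF (0.82 ± 0.082, adjusted p = 1.7e-05). *Ntsr2*, a neurotensin receptor gene of astrocytes, had 319.9 and 319.9 in rcCHIL3 against 106 and 103 in MHM + GF at 3 days (1.45 ± 0.068, adjusted p = 1.6e-08). At 7 days it had 586 and 618 in rcCHIL3 and 499 and 532 in MHM + GF (0.22 ± 0.068, adjusted p = 0.0235), a call that was lost without rcCHIL3 array 2 or MHM + GF array 1 of that day (adjusted p = 0.142 and 0.122) and on the deposited scale (0.0592). *Gpr37l1*, an orphan receptor gene of glia, was higher by a like amount at both days, with 114 and 111 in rcCHIL3 against 36.8 and 32.2 in MHM + GF at 3 days (1.29 ± 0.088, adjusted p = 3.4e-07). The 7-day signals were 183 and 187 in rcCHIL3 and 70.3 and 72.3 in MHM + GF (1.17 ± 0.088, adjusted p = 1.8e-06).

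Of the 2 receptors for the lipid mediator sphingosine 1-phosphate, *S1pr3* was higher in rcCHIL3 at both days and *S1pr1* passed the test at neither. *S1pr3* had 169 and 159 in rcCHIL3 against 28.1 and 32.2 in MHM + GF at 3 days (1.88 ± 0.084, adjusted p = 1.1e-08). On day 7 it had 766 and 764 in rcCHIL3 and 466 and 536 in MHM + GF (0.59 ± 0.084, adjusted p = 2.0e-04). For *S1pr1* the log2 changes were 0.27 ± 0.11, adjusted p = 0.0618 at 3 days and 0.092 ± 0.11, adjusted p = 0.53 at 7 days. The first was called when either MHM + GF array of day 7 was left out (adjusted p = 0.0238 and 0.023). *Cd9*, a tetraspanin gene, was higher at 3 days (0.47 ± 0.057, adjusted p = 3.3e-05) and just missed the threshold at 7 days (0.15 ± 0.057, adjusted p = 0.0501). *Gpm6b*, a membrane glycoprotein gene of glia and neurons, did not pass the test at 3 days (-0.056 ± 0.057, adjusted p = 0.447) and was slightly lower in rcCHIL3 at 7 days, with 2139 and 2124 against 2560.3 and 2429 in MHM + GF (-0.22 ± 0.057, adjusted p = 0.0084). That call was lost without MHM + GF array 1 of that day (adjusted p = 0.0618) and on the deposited scale (0.302).

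**Figure D3:**
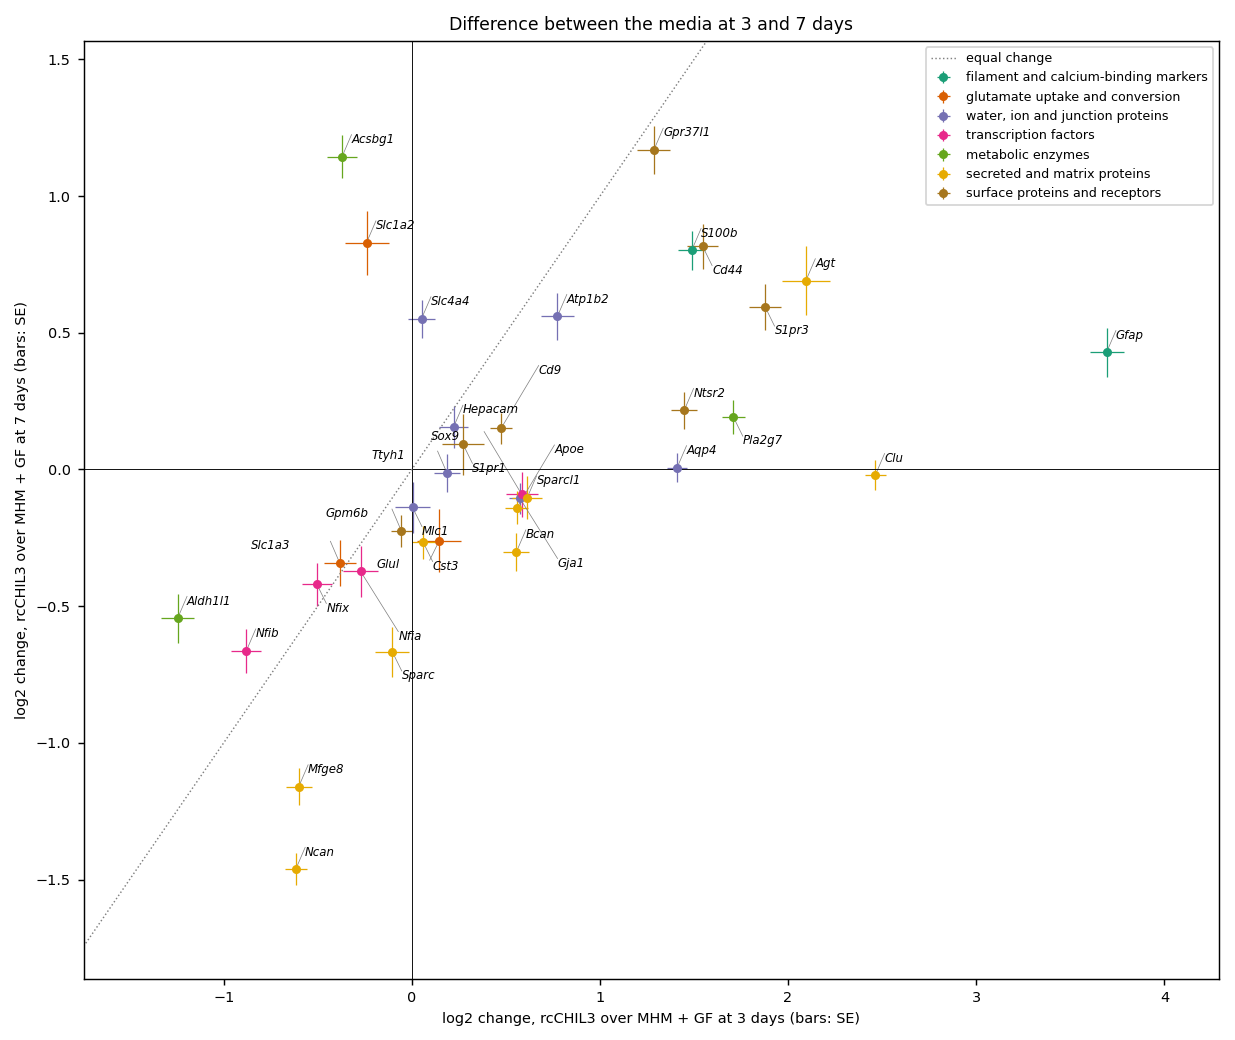
Log2 change between the media, rcCHIL3 over MHM + GF, at 3 days (horizontal) and at 7 days (vertical) for the 35 tested genes, colored by role, with SE bars and a dotted line of equal change. *Gfap* (3.69 and 0.43) and *Clu* (2.46 and -0.022) lie far right and near 0 on the vertical axis, *Gpr37l1* lies close to the dotted line, and *Acsbg1* is upper left.

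The difference between the media was tested against itself across the days. The effect is signed. A lower effect at 7 days is a smaller excess in rcCHIL3, a larger deficit or a change of sign. The rcCHIL3 effect at 7 days was lower than at 3 days for 19 of the 35 genes (54.3%) and higher for 4 (11.4%), against 24.1% and 19.2% of all genes. The falls were largest for *Gfap* (-3.26 ± 0.13, adjusted p = 1.5e-08), *Clu* (-2.48 ± 0.078, adjusted p = 4.3e-09), *Pla2g7* (-1.52 ± 0.089, adjusted p = 2.4e-07), *Agt* (-1.40 ± 0.18, adjusted p = 9.7e-05) and *Aqp4* (-1.40 ± 0.077, adjusted p = 1.5e-07). All 9 genes for secreted and matrix proteins had a lower signed effect at 7 days. For *Ncan* (-0.62 to -1.46), *Mfge8* (-0.60 to -1.16) and *Sparc* (-0.10 to -0.67) this was a larger deficit in rcCHIL3, and *Bcan* changed sign (0.56 to -0.30). The 4 genes with a higher effect at 7 days were *Acsbg1* (1.52 ± 0.11, adjusted p = 1.7e-06), *Slc1a2* (1.07 ± 0.17, adjusted p = 3.9e-04), *Aldh1l1* (0.70 ± 0.13, adjusted p = 0.0011) and *Slc4a4* (0.50 ± 0.099, adjusted p = 0.002). For *Aldh1l1* this was a smaller deficit in rcCHIL3 (-1.24 to -0.54), and *Acsbg1* changed sign (-0.37 to 1.14). At their brightest probe sets, the effect on the NFI genes did not pass the test of a difference between the days, with changes of -0.10 ± 0.13, adjusted p = 0.566 (-0.27, adjusted p = 0.0491 without MHM + GF array 1 at 3 days) for *Nfia*, 0.22 ± 0.11, adjusted p = 0.151 for *Nfib* and 0.084 ± 0.11, adjusted p = 0.568 for *Nfix*, nor did that on *Gpr37l1* (-0.12 ± 0.12, adjusted p = 0.476). For *Nfib* this depended on the probe set: 3 of its 5 other probe sets were called with a less negative effect at 7 days (0.28 to 0.63, adjusted p of 0.0037 to 0.0242), and so was the mean of all 6 (0.33, adjusted p = 0.0237). One other probe set of *Nfix* was called as well (0.42, adjusted p = 0.048).

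With time in MHM + GF, 7 genes were at least 2-fold higher at 7 days than at 3 days. These were *Gfap* (4.02 ± 0.090), *S1pr3* (3.37 ± 0.084), *Clu* (2.83 ± 0.055), *Ntsr2* (2.10 ± 0.068), *Pla2g7* (1.77 ± 0.063), *Aqp4* (1.49 ± 0.054) and *Agt* (1.41 ± 0.13). *Gfap* had mean signals of 1145 ± 62.6 at 7 days and 52.0 ± 7.95 at 3 days in this medium, a 22.03-fold ratio. The median log2 change with time was 0.60 in MHM + GF, against 0.068 for all genes. The quartiles were 0.15 and 0.86, against -0.22 and 0.34 for all genes. For the 2-fold counts with time, in this medium and in rcCHIL3 below, no share of all genes is given.

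In rcCHIL3 the changes with time were smaller, with a median of 0.11 against 0.012 for all genes. Only *S1pr3* was at least 2-fold higher at 7 days (2.09 ± 0.084, adjusted p = 4.1e-08), and only *Ncan* at least 2-fold lower (-1.80 ± 0.059, adjusted p = 1.1e-08). *Gfap* (0.76 ± 0.090, adjusted p = 7.3e-05), *Ntsr2* (0.87 ± 0.068, adjusted p = 3.1e-06), *Slc1a2* (0.82 ± 0.12, adjusted p = 2.5e-04), *Hepacam* (0.75 ± 0.077, adjusted p = 2.5e-05) and *Acsbg1* (0.68 ± 0.079, adjusted p = 6.1e-05) were also higher at 7 days. *Agt* (0.0032 ± 0.13, adjusted p = 0.987), *S100b* (-0.079 ± 0.072, adjusted p = 0.42 at the brightest probe set, and -0.34, adjusted p = 0.0134 at the other) and *Aqp4* (0.087 ± 0.054, adjusted p = 0.239) did not pass the test, and *Cd44* (-0.59 ± 0.082, adjusted p = 2.0e-04), *Bcan* (-0.65 ± 0.069, adjusted p = 3.2e-05) and *Ttyh1* (-0.31 ± 0.068, adjusted p = 0.0042) fell.

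A total of 12 genes (34.3%) rose with time in both media, against 10.9% of all genes, among them *Hepacam*, *Mlc1*, *Nfia*, *Nfix* and *Gpr37l1*. *Nfia* had mean signals of 834 ± 5.74 at 7 days and 528 ± 18.2 at 3 days in rcCHIL3, and 1087 ± 16.1 at 7 days and 646 ± 111 at 3 days in MHM + GF (SD, n = 2). *Nfib* passed the test between the days in neither medium at its brightest probe set (0.11 ± 0.080, adjusted p = 0.303 in rcCHIL3 and -0.10 ± 0.080, adjusted p = 0.291 in MHM + GF). Of its 5 other probe sets, 4 were lower at 7 days in MHM + GF (-0.16 to -0.52, adjusted p of 0.004 to 0.0462) and 1 was higher (0.25, adjusted p = 0.0474), and the mean of all 6 was lower (-0.21, adjusted p = 0.0313). In rcCHIL3 1 of the 5 was higher at 7 days (0.32, adjusted p = 0.023). *Ncan* fell in both media, and *Acsbg1* rose in rcCHIL3 and fell in MHM + GF (-0.83 ± 0.079, adjusted p = 4.8e-06). *Aldh1l1* and *Slc4a4* fell in MHM + GF (-0.60 ± 0.089 and -0.52 ± 0.070) and did not pass the test in rcCHIL3 (0.10 ± 0.089 and -0.022 ± 0.070). Calls that were lost when 1 array was left out were those of *Gja1*, *Pla2g7* and *S1pr1* in rcCHIL3, with adjusted p up to 0.0853, and of *Atp1b2*, *Bcan*, *Cd9* and *Glul* in MHM + GF, with adjusted p up to 0.23.

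Markers of other cell types moved over the same days. *Pdgfra* is counted both with the oligodendrocyte progenitor genes and with the mural and fibroblast genes. Among all genes 20.3% were higher and 18% lower at 7 days in rcCHIL3, and 34% and 24.2% in MHM + GF. Of 14 neuroblast and neuron genes tested, none was higher and 9 were lower at 7 than at 3 days in rcCHIL3 (median log2 change -0.84), and 13 were higher and 1 lower in MHM + GF (1.34). Of 12 oligodendrocyte progenitor genes, 11 were lower and none higher at 7 days in either medium (medians of -1.22 in rcCHIL3 and -0.79 in MHM + GF). Of 12 NSC and progenitor genes, 3 were higher and 4 lower in rcCHIL3 and 3 higher and 6 lower in MHM + GF. Of 10 myelinating oligodendrocyte genes, 6 were higher and 3 lower in rcCHIL3 and 6 higher and 2 lower in MHM + GF. Of 8 ependymal and choroid plexus genes, 6 were higher and none lower in either medium, and of 4 mural and fibroblast genes 1 was higher and 3 lower in rcCHIL3, and 2 were higher and 2 lower in MHM + GF. Their part in the time course of the astrocyte genes was not tested.

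**Figure D4:**
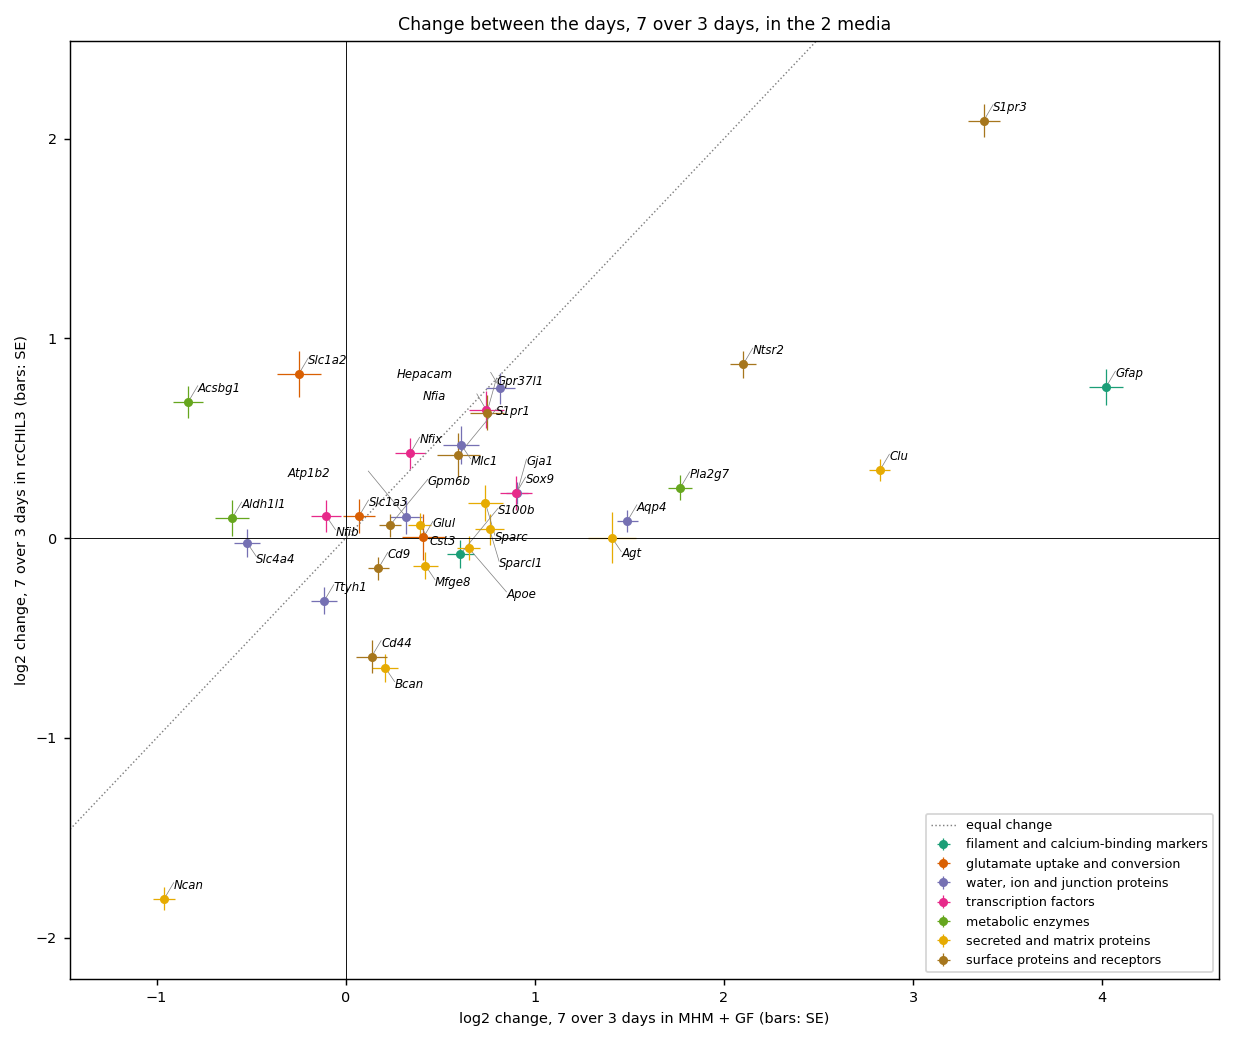
Log2 change with time, 7 over 3 days, in MHM + GF (horizontal) and in rcCHIL3 (vertical) for the 35 tested genes, colored by role, with SE bars and a dotted line of equal change. *Gfap* and *Clu* lie far to the right and below the dotted line, *S1pr3* is high on both axes (3.37 and 2.09), and *Ncan* is low on both.

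Where a gene had further probe sets over the filter, these were read as a check. There were 21 such genes, with 78 probe sets over the filter for the whole list, out of 101. At 3 days, 17 of the 21 genes were called at the brightest probe set. Of their 36 other probe sets, 33 were called in the same direction and none in the opposite one. At 7 days the same held for 22 of 28 other probe sets of 14 called genes, again with none opposite. *Gfap* had log2 changes of 3.29 and 2.98 at 3 days at its other 2 probe sets. Among genes not called at the brightest probe set, *Slc4a4* had another probe set with a log2 change of -1.16 at 3 days, *Aqp4* another with 0.77 at 7 days, and the other 2 of *Ttyh1* were called in opposite directions at 7 days (-0.76 and 0.32). With time in rcCHIL3, 7 of 10 genes not called at the brightest probe set had another one called (*S100b*, *Slc1a3*, *Glul*, *Slc4a4*, *Atp1b2*, *Nfib* and *Sparc*), and with time in MHM + GF 1 of 4 had (*Nfib*). For the effect at 7 days against that at 3 days it was 5 of 9 (*Slc1a3*, *Atp1b2*, *Ttyh1*, *Nfib* and *Nfix*). In each of these comparisons, the statement that the gene was not called holds for its brightest probe set alone.

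**Figure D5:**
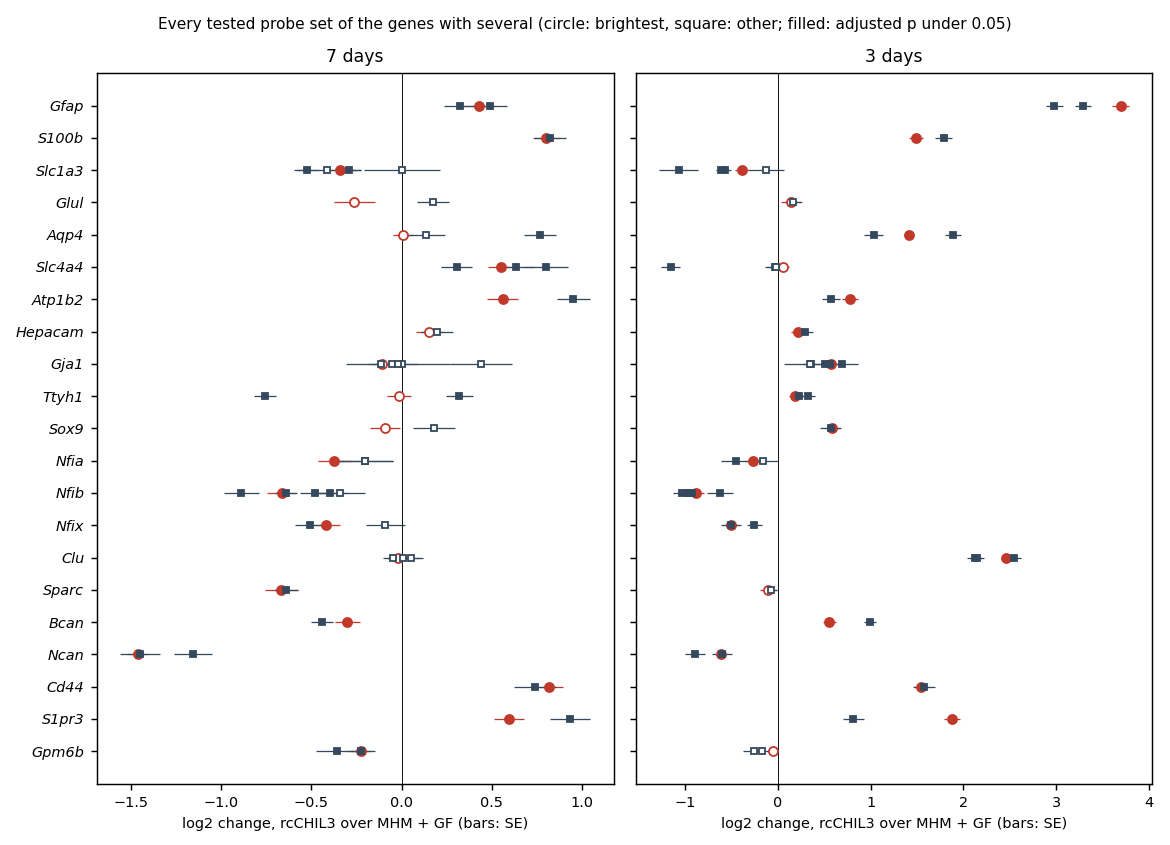
Log2 change between the media, rcCHIL3 over MHM + GF, at 7 days (left) and 3 days (right), for every tested probe set of the 21 genes with more than 1, with SE bars (circles, brightest probe set; squares, others; filled, adjusted p under 0.05). The probe sets of *Gfap*, *Clu*, *Cd44*, *Nfib* and *Ncan* lie on the same side of 0 at 3 days, and those of *Slc4a4* do not.

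Genes of the gliogenic cytokine and BMP pathways were read from a separate list. Of 25 genes with a probe set, 20 were tested, and *Cntfr*, *Lif*, *Ctf1*, *Bmp2* and *Nog* were under the filter. Of 20 tested, 10 were higher and 4 lower in rcCHIL3 at 3 days, against 30.3% and 22.1% of all genes. At 7 days 7 were higher and 8 lower, against 21.8% and 22.6%. *Il6st*, which encodes gp130, the shared receptor subunit of gliogenic cytokines, had 429 and 399.9 in rcCHIL3 against 79.2 and 85.2 in MHM + GF at 3 days (2.09 ± 0.072, adjusted p = 1.8e-09). Its signals at 7 days were 628 and 608 in rcCHIL3 and 331 and 352 in MHM + GF (0.82 ± 0.072, adjusted p = 6.0e-06). *Bmp4*, a ligand of the BMP pathway, had 508 and 449 in rcCHIL3 against 168 and 162 in MHM + GF at 3 days (1.43 ± 0.095, adjusted p = 2.7e-07), and did not pass the test at 7 days (0.19 ± 0.095, adjusted p = 0.119). *Hes5*, a target of Notch, was lower at 7 days (-1.75 ± 0.12, adjusted p = 6.9e-07) and did not pass the test at 3 days (0.16 ± 0.12, adjusted p = 0.279). *Stat3* itself was slightly lower at 3 days (-0.18 ± 0.066, adjusted p = 0.0381).

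Of 21 further astrocyte genes tested, 7 were higher and 9 lower at 3 days, and 6 were higher and 4 lower at 7 days. *Chrdl1*, *Gpc5*, *Slc7a10*, *Grin2c* and *Phkg1* of that list were under the filter. For these and the reactive genes below, the shares of all genes were 30.3% and 22.1% at 3 days and 21.8% and 22.6% at 7 days. *Slc6a11*, the GABA transporter of astrocytes, was lower, with 27.5 and 33.9 in rcCHIL3 against 467 and 587 in MHM + GF at 3 days (-3.43 ± 0.13, adjusted p = 3.0e-09). Later, at 7 days, the arrays read 69.5 and 83.1 in rcCHIL3 and 213 and 257 in MHM + GF (-1.40 ± 0.13, adjusted p = 8.0e-06). *Entpd2*, an ectonucleotidase gene, was higher at 3 days (2.68 ± 0.068, adjusted p = 4.2e-10), and so was *Id4*, an inhibitor of basic helix-loop-helix factors (1.93 ± 0.079, adjusted p = 5.3e-09). Only 11 of the 23 reactive astrocyte genes with a probe set were tested, and the others, among them *Lcn2*, *Timp1*, *Cxcl10* and *Serping1*, were under the filter. Of the 11, 4 were higher and 7 lower at 3 days, and 2 were higher and 3 lower at 7 days. The 3 with the largest changes were *S100a10* (-2.18 ± 0.15), *Clcf1* (1.92 ± 0.12) and *Hspb1* (-1.47 ± 0.10), all at 3 days.

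Markers of other cell types differed between the same groups. As above, *Pdgfra* is counted both with the oligodendrocyte progenitor genes and with the mural and fibroblast genes. Their counts, here and in the paragraphs that follow, stand beside the shares of all genes. These were 30.3% higher and 22.1% lower at 3 days, and 21.8% higher and 22.6% lower at 7 days. Of 12 NSC and progenitor genes, 3 were higher and 7 lower at 3 days, and none was higher and 8 were lower at 7 days. The proliferation gene *Mki67* had 92.4 and 82.2 in rcCHIL3 against 738 and 765 in MHM + GF at 3 days (-2.85 ± 0.10, adjusted p = 2.3e-09). By 7 days the values were 25.7 and 17.6 in rcCHIL3 and 129 and 125 in MHM + GF (-1.83 ± 0.10, adjusted p = 1.8e-07). *Nes*, the filament gene of NSCs, had 24.9 and 25.5 in rcCHIL3 against 187 and 186 in MHM + GF at 3 days. The EGF receptor gene *Egfr* was lower at both days (-1.83 at 3 days and -1.04 at 7 days). *Nes* stood under 50 on every array but those of MHM + GF at 3 days. It passed the filter only through that group, so its test is not given, although it is counted among the lower genes at 3 days. The summed signal of the 13 genes with a probe set was 4493 to 4682 in rcCHIL3 against 6352 to 6364 in MHM + GF at 3 days, and 3941 to 4103 against 5370 to 5545 in MHM + GF at 7 days.

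Of 10 myelinating oligodendrocyte genes, 9 were higher and 1 lower at 3 days, and 6 were higher and none lower at 7 days. The leading genes were *Cldn11* (2.22 at 3 days), *Ugt8a* (2.15 at 3 days) and *Opalin* (1.78 at 7 days), and *Mog* and *Ermn* were under the filter. The summed signal of the 12 genes with a probe set was 8123 to 8247 in rcCHIL3 against 3988 to 4000 in MHM + GF at 3 days. At 7 days it was 7970 to 8201 in rcCHIL3 against 6004 to 6074 in MHM + GF. Of 12 oligodendrocyte progenitor genes, 6 were higher and 4 lower at 3 days, and 2 were higher and 3 lower at 7 days. The leading genes were *Enpp6* (2.06), *Bmp4* and *Gpr17* (1.05), all at 3 days. Their sum was 5121 to 5182 in rcCHIL3 against 4434 to 4567 in MHM + GF at 3 days, and 1952 to 1955 against 2190 to 2284 in MHM + GF at 7 days.

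Of 14 neuroblast and neuron genes, 12 were higher and 2 lower in rcCHIL3 at 3 days, and 1 was higher and 11 lower at 7 days. The leading genes, at 7 days, were *Dlx1* (-3.24), *Dlx2* (-2.48) and *Elavl4* (-1.88), and *Gad2*, *Rbfox3* and *Syt1* were under the filter. The summed signal of the 17 genes was 2770 to 2843 in rcCHIL3 against 1879 to 1920 in MHM + GF at 3 days, and 1861 to 1926 against 4021 to 4080 in MHM + GF at 7 days. Of 8 ependymal and choroid plexus genes, 5 were higher and 2 lower at 3 days, and 4 were higher and 1 lower at 7 days, led by *Ttr* (1.55 at 3 days), *Rsph1* (1.17 at 7 days) and *Foxj1* (1.11 at 3 days). Under the filter were *Ccdc153*, *Tmem212*, *Tekt1*, *Kl*, *Clic6* and *Aqp1*. Of 4 mural and fibroblast genes, 2 were higher and 1 lower at 3 days, and none was higher and 2 were lower at 7 days, led by *Pdgfrb* (-2.55 at 7 days), *Rgs5* (-1.86 at 7 days) and *Acta2* (0.69 at 3 days). *Kcnj8*, *Abcc9*, *Col1a1*, *Col1a2*, *Dcn* and *Lum* were under the filter. The 14 ependymal and choroid plexus genes summed to 602 to 939 in rcCHIL3 against 466 to 646 in MHM + GF at 3 days, and 1379 to 1551 against 1017 to 1285 in MHM + GF at 7 days. The 10 mural and fibroblast genes summed to 411 to 422 in rcCHIL3 against 352 to 421 in MHM + GF at 3 days, and 255 to 259.7 against 621 to 659 in MHM + GF at 7 days. What part these cell types had in the values of the astrocyte genes was not tested.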

How the data were processed

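RNA from 8 mouse NSC cultures (100 ng of total RNA each per the study's methods) was hybridized to Affymetrix mouse arrays. The deposited values are signal intensities on a linear scale, computed by the authors with MAS5 (Affymetrix Expression Console 1.1 per the labels, GeneChip Operating Software per the methods). Each array was divided by its average and multiplied by 100. Of 45101 probe sets, 64 array controls were left out, and 15679 with a signal of at least 50 on 2 of 8 arrays were tested as log2(signal + 20).

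The 4 groups were compared in a linear model (limma 3.58.1, R 4.3.3) with trended eBayes and 4 residual degrees of freedom (11.2 in total after eBayes). P-values are two-sided and Benjamini-Hochberg adjusted over these probe sets, with a threshold of 0.05. The code was tested on simulated data. Figures were made with matplotlib 3.10.9 under Python 3.11.15. Array depth has no counterpart in reads, and the number of arrays limits the precision.

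Genes were named from the 34958 probe sets with 1 symbol (932 had several, 9211 none). Promoter sequences are from RefSeq (GRCm38.p6). All 37 genes are accounted for; array values are given for genes changed at least 2-fold between the media, for those against the larger share and for those under the filter. Of other lists, the 3 genes with the largest called change are named, plus *Sox2* and *Stat3*, chosen after their values were seen. The genes and lists were chosen with earlier results of these data known. Alternatives covered the offset, filter, scaling, replicate block, test, probe set and each array left out.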

Additional observations from a re-analysis of the deposited data

Results flagged for a closer look

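For 23 of the 35 tested genes the difference between rcCHIL3 and MHM + GF changed between the days by limma's test of the difference itself (Benjamini-Hochberg adjusted over all probe sets), at 2 arrays per group. The signed effect was lower at 7 days for 19 of them and higher for 4 (54.3% and 11.4% of the 35), where 24.1% and 19.2% of all genes were. As the log2 effect at 7 days minus that at 3 days, it was -3.26 for *Gfap*, -2.48 for *Clu*, -1.52 for *Pla2g7*, -1.40 for *Agt*, -1.40 for *Aqp4*, -1.28 for *S1pr3* and -1.23 for *Ntsr2*. Negative values nearer to zero were -0.86 for *Bcan*, -0.85 for *Ncan*, -0.73 for *Cd44*, -0.72 for *Sparcl1*, -0.70 for *Apoe*, -0.69 for *S100b*, -0.68 for *Gja1*, -0.68 for *Sox9*, -0.56 for *Sparc*, -0.56 for *Mfge8*, -0.33 for *Cst3* and -0.32 for *Cd9*. A negative value is not always a weaker difference: that of *Ncan*, *Mfge8* and *Sparc* grew, and that of *Bcan* changed sign. Positive values were 1.52 for *Acsbg1*, 1.07 for *Slc1a2*, 0.70 for *Aldh1l1* and 0.50 for *Slc4a4*. Among these the difference of *Aldh1l1* shrank, and that of *Acsbg1* changed sign. The other probe set of *S1pr3* over the filter gave 0.12 (adjusted p = 0.568), of the opposite sign and not called. On the deposited scale, which moves the median of all tested probe sets in this comparison to 0.12 against -0.038, the calls of *Cst3* and *Cd9* were lost (-0.16 and -0.15), and *Cst3* also without MHM + GF array 1 at 3 days (-0.27, adjusted p = 0.0535).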

How the results depend on the processing

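Of 3745 values of single genes under alternative settings, 3534 kept their side of the threshold and, where called, their direction. Values called in neither fit are among these even where their sign changed. A further 156 lost the call, 54 gained one and 1 was called in the opposite direction. This was *Slc4a4* at 3 days as the mean of all its kept probe sets (-0.29, adjusted p = 0.0035), a change not called at its brightest. The t-test that the study's methods name for means of 2 groups was run on linear signals of 2 groups at a time. Unadjusted, it gave 20 higher and 5 lower genes at 3 days, and 10 higher and 9 lower at 7 days. With time it gave 12 higher and 4 lower in rcCHIL3, and 20 higher and 4 lower in MHM + GF, again unadjusted. After Benjamini-Hochberg adjustment it gave 13 higher and 1 lower at 3 days, 0 higher and 1 lower at 7 days, 0 higher and 0 lower with time in rcCHIL3, and 10 higher and 2 lower with time in MHM + GF. On the deposited scale without rescaling, 7 genes were lower at 7 days, against 11. On that scale 17 genes were higher and 9 lower at 3 days, 11 higher at 7 days, 16 higher and 3 lower with time in rcCHIL3, 23 higher and 5 lower with time in MHM + GF, and 4 higher and 17 lower for the effect at 7 days against that at 3 days. Higher calls then made up 44.4% of all calls at 3 days (55.1% with rescaling), 65.2% at 7 days (48.5%), 67.5% with time in rcCHIL3 (50.2%), 45.4% with time in MHM + GF (54.5%) and 66.3% for the effect at 7 days against that at 3 days (45.3%). With each array left out in turn, 17 to 20 genes were higher and 7 to 9 lower at 3 days, 10 to 12 higher and 10 to 12 lower at 7 days, 11 to 15 higher and 4 lower with time in rcCHIL3, 22 to 26 higher and 4 to 5 lower with time in MHM + GF, and 4 higher and 19 to 20 lower for the effect at 7 days against that at 3 days. Whether same-numbered arrays were paired is not stated. Their deviations correlated little (r of -0.011 to 0.10), which does not decide it. In every group array 1 had the larger share of probe sets reaching 50 (30.7 to 31.5%, against 30.1 to 30.9% for array 2). A fit with the number as a replicate block lost no call of these genes and gained 3, with 19 higher and 8 lower at 3 days and 13 higher and 11 lower at 7 days. For the counts of genes under these alternatives no share of all genes is given. With 2 arrays per group, the p-values of the model rest on the spread within the 4 groups together, moderated by that of all tested probe sets. The total was 11.2 degrees of freedom, of which 4 were residual. The offset makes log2 changes of low signals smaller than the ratio of signals (3.69 against a 17.5-fold ratio for *Gfap* at 3 days).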
